A study of Mus musculus with 6 samples.

Results

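The 35 genes described here encode the subunits of the mouse proteasome and its activators, and were taken by symbol from the 52740 gene rows of the count table. They comprise 14 genes of the 20S core (7 alpha, Psma1 to Psma7, and 7 beta, Psmb1 to Psmb7), 6 of the ATPase ring (Psmc1 to Psmc6), 3 of the remaining base (Psmd1, Psmd2 and Psmd4), 8 of the lid and 4 of the activators (Psme1 to Psme4). The first 31 are called 26S genes below. All 35 were found, and all 35 passed the filter on low counts, as did 15022 genes in all. The RNA came from C2C12 cells, a mouse myoblast line, transfected with RNAiMAX and either a random control siRNA (siCTRL, 3 libraries) or an siRNA against Cox7a2l (siCOX7A2L, 3 libraries). Both groups were grown in the same medium with 10% fetal bovine serum. The sources used here give neither the time from transfection to harvest nor the number of siRNA sequences. Since no label names the replicates as separate cultures, the p-values cover only the spread among these 6 libraries, and that spread may be technical.

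The proteasome is the protease that degrades most ubiquitin-tagged proteins of the cytosol and nucleus. Its barrel-shaped 20S core is built from outer rings of alpha subunits, which gate the entrance, and inner rings of beta subunits, of which Psmb5, Psmb6 and Psmb7 encode the catalytic ones. The 19S particle caps the core. Its base carries a ring of ATPases that unfold the substrate and thread it inwards, and its lid holds the deubiquitinase that removes the ubiquitin chain. The subunits are needed in fixed ratios, and their genes are known to be induced together by the transcription factor Nfe2l1 (also called NRF1) when proteasome activity is limiting. In muscle the complex is known for its part in protein breakdown during wasting and for its requirement in myoblast differentiation.

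Library totals lay between 9890218 and 17077826 estimated counts. Replicate 3 differed from the other replicates in each group. The summed level of 6 genes of differentiating muscle (Myog, Myh3, Ckm, Tnnt1, Actc1 and Mymk) was 6.95 to 26.3 CPM in the 4 libraries of replicates 1 and 2, against 141 CPM in control replicate 3 and 386 CPM in Cox7a2l siRNA replicate 3. The 5 myoblast markers (Myod1, Myf5, Des, Cdh15 and Vim) summed to 5736 to 7923 CPM in the 6 libraries. Most of that sum was Vim, at 3735 to 6727 CPM, which was lowest in replicate 3 of each group. Des, at 728 to 1892 CPM, Cdh15 and Myod1 were highest in replicate 3 of each group, and Myf5 was not. Fibroblast markers summed to 16.8 to 55.7 CPM. Macrophage markers summed to 3.30 CPM at most, with Adgre1 at 0 throughout, and endothelial markers to 0.898 CPM at most. CPM values here are counts scaled to library size with TMM factors. In bulk RNA, fewer cells of a type and less RNA per cell cannot be told apart. Same-numbered libraries were treated as pairs, and a pair difference is the log2 CPM of Cox7a2l siRNA minus that of control siRNA.

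Cox7a2l itself (ENSMUSG00000024248.15), which encodes an assembly factor of respiratory supercomplexes, was at 58.0, 59.5 and 58.9 CPM with control siRNA and 6.72, 5.90 and 3.59 CPM with Cox7a2l siRNA. It fell to 0.0923 times its control level, a log2 fold change of -3.44 (SE 0.19, edgeR adjusted p = 1.9e-05), and was lower in 3 of 3 pairs.

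No proteasome gene passed the test. With the replicate number as block, 0 of 35 members were called by edgeR at an adjusted p of 0.05, where 0.726% of all genes were called (0.433% higher and 0.293% lower). At an unadjusted p of 0.05, 3 of 35 members were higher, which is 8.57% against 8.74% of all genes, and 0 were lower against 8.97% of all genes. These 3 were Psmd7, Psme1 and Psme2. DESeq2 with the same block also called 0 members, where it called 4.11% of genes. The adjusted p of the members ran from 0.148 to 0.983. Of the fitted log2 fold changes 19 were positive and 16 negative, with a median of 0.02 against 0.01 over all genes, and they spanned -0.27 (Psme4) to 0.41 (Psmd7). The standard errors were 0.12 to 0.17. The 95% intervals of the 31 26S genes lay between -0.54 and 0.71, and 30 of them included 0. Missing the threshold does not show that the levels were equal. The intervals are those of the model with the block. Without the block the standard error of each member was larger, for example 0.31 for Psma1 and 0.24 for Psmd7. The groups did not overlap in 1 of 35 members, Psme1, which was higher with Cox7a2l siRNA. Over all genes 7.96% were separated in that direction and 7.62% in the other, where no member was.

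**Figure D1:**
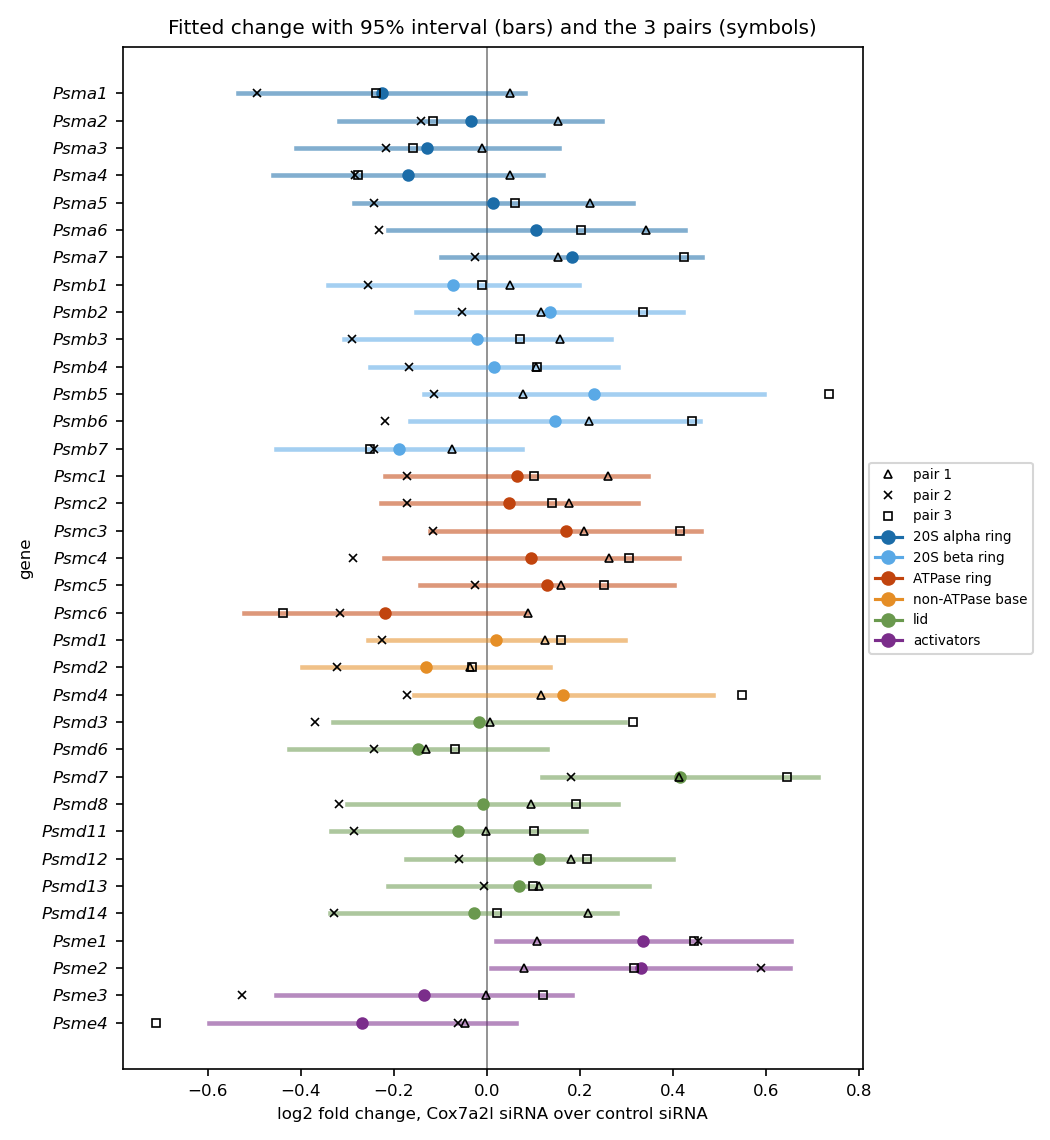
Fitted log2 fold change (Cox7a2l siRNA over control siRNA, edgeR with replicate block) of each of the 35 proteasome genes as a dot with its 95% interval as a bar, coloured by subcomplex, and the 3 pair differences as open symbols or crosses. The bars of 32 genes cross 0, the other bars being those of Psmd7, Psme1 and Psme2, and the crosses of pair 2 lie left of 0 in 30 of the 31 26S genes.

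The upstream sequence of 4 members is shown. Psma1 and Psmb5 had the lowest and highest fitted values of the 20S core. Psmb6 is the most abundant member per transcript length, and Psme1 is the member whose groups did not overlap. The 4 genes were picked by these values, and none passed the test. Each sequence is the 250 bases before the annotated start, 5′ to 3′ on the gene's strand, from the RefSeq promoter table (GRCm38.p6). The positions are chr7:114276117-114276366, minus strand, for Psma1, chr14:54617996-54618245, minus strand, for Psmb5, chr11:70525107-70525356, plus strand, for Psmb6 and chr14:55578244-55578493, plus strand, for Psme1. Capitals mark every match, on either strand, to an antioxidant response element core (TGACNNNGC), a CCAAT box (CCAAT), an interferon-stimulated response element (GAAA, 2 bases of any kind, GAAA) or a GC box (GGGCGG), and none of the matches shown overlaps another.
Psma1: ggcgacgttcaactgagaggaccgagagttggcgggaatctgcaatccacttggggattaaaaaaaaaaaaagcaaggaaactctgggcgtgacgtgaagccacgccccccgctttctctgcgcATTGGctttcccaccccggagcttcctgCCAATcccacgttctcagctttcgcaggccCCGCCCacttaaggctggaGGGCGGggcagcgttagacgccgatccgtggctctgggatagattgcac
Psmb5: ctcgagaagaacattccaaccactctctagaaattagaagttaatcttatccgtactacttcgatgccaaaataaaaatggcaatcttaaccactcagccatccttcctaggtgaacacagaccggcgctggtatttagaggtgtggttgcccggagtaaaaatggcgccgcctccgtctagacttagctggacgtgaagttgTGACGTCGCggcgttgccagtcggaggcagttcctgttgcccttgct
Psmb6: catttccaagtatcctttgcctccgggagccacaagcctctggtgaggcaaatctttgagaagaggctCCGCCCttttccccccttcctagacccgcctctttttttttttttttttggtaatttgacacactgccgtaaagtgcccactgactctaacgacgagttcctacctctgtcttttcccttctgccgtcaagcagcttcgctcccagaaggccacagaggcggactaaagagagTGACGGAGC
Psme1: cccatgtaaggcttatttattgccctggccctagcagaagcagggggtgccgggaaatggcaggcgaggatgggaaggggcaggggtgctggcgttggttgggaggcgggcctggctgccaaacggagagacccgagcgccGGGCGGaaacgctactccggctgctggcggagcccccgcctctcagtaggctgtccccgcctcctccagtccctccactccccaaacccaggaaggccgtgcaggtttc

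Psma1 has 2 CCAAT boxes and 2 GC boxes in this window. Psmb5 has the antioxidant core with its first base 47 bases before the start, and Psmb6 has one 9 bases before it. Of the 35 members, 29 matched the table by symbol. Psmb1, Psmb2, Psmb7, Psmc3, Psmd3 and Psmd7 did not. The antioxidant core, the type of element that Nfe2l1 and Nfe2l2 bind, was found in 4 of the 29 (13.8%: Psmb5, Psmb6, Psmc6 and Psmd12) against 11.5% of 27025 genes in the table. The CCAAT box was in 11 of 29 (37.9%) against 37.5%, and 5 of those 11 were alpha subunit genes. The GC box was in 17 of 29 (58.6%) against 35.4%, and the interferon element in Psmb3 and Psmd4 alone (6.9% against 3.46%). The 4 genes with the antioxidant core had log2 fold changes of 0.23, 0.15, -0.22 and 0.11. None passed the test. A match is a run of letters and not a measured site. All 35 members passed the filter on low counts, while the 27025 genes were not limited to genes that did.

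Among the alpha subunit genes, 3 fitted values were positive and 4 negative, with a median of -0.03. Psma7 had the highest of them, at 144, 151 and 105 CPM with control siRNA and 160.5, 148 and 141 CPM with Cox7a2l siRNA. Replicate 3 was the lowest library of each group, and the groups overlapped. Its log2 fold change was 0.18 (SE 0.13, 95% interval -0.10 to 0.46, edgeR adjusted p = 0.494). On TPM it was -0.13, where the median of all genes was -0.21. Psma1 had the lowest, at 88.5, 90.6 and 52.9 CPM with control siRNA and 91.6, 64.3 and 44.8 CPM with Cox7a2l siRNA. Means were 77.3 ± 21.2 against 66.9 ± 23.5 CPM (SD, n = 3), and the pair differences were 0.05, -0.49 and -0.24. The fitted value of Psma1 was -0.23 (SE 0.14, 95% interval -0.54 to 0.08, edgeR adjusted p = 0.435), and the spread between replicates was larger than the difference between groups. Psma2 to Psma6 lay between -0.17 (Psma4) and 0.11 (Psma6), and each was lower in pair 2.

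The beta subunit genes had 4 positive and 3 negative values, with a median of 0.02. The 3 catalytic subunits did not share a direction. Psmb5, which encodes the chymotrypsin-like subunit beta5, was at 73.9, 77.6 and 51.4 CPM with control siRNA and 78.1, 71.6 and 85.7 CPM with Cox7a2l siRNA. Its log2 fold change was 0.23 (SE 0.17, 95% interval -0.14 to 0.60, edgeR adjusted p = 0.511), and most of it came from pair 3, where the difference was 0.74 against 0.08 and -0.11 in the others. Psmb5 is uncertain, since 71.7% of the 31-base words of its transcripts also occur in other genes. A copy, Gm3375, was read at 43.7, 46.0 and 29.0 CPM with control siRNA and 50.3, 42.9 and 26.2 CPM with Cox7a2l siRNA. The sum of both was 107 ± 23.4 against 118 ± 8.85 CPM (SD, n = 3), so the difference stayed within the spread. Psmb6, which encodes the caspase-like subunit beta1, was at 149.9, 159 and 116 CPM with control siRNA and 175, 137 and 158 CPM with Cox7a2l siRNA, with a log2 fold change of 0.15 (SE 0.14, 95% interval -0.17 to 0.46, edgeR adjusted p = 0.637). Psmb7, which encodes the trypsin-like subunit beta2, was at 105, 99.4 and 106 CPM with control siRNA and 100.1, 83.9 and 88.8 CPM with Cox7a2l siRNA. It was the lowest beta gene, at -0.19 (SE 0.12, 95% interval -0.45 to 0.07, edgeR adjusted p = 0.446), and, with Psma3, 1 of the 2 core genes that were lower in all 3 pairs. Its groups overlapped by a narrow margin, between 99.4 and 100.1 CPM. On TPM, where the median of all genes was -0.21, the value of Psmb5 turned to -0.05. Without replicate 3 the value of Psmb5 turned to -0.02. The noncatalytic Psmb1, Psmb2, Psmb3 and Psmb4 lay between -0.07 and 0.13.

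All but 1 of the 6 ATPase genes had a positive value, with a median of 0.08, and none passed the test (lowest adjusted p = 0.446 by edgeR). On TPM, where all genes shift by -0.21, the ATPase median was -0.17. Psmc3, the highest, was at 231, 235 and 215 CPM with control siRNA and 266, 217 and 287 CPM with Cox7a2l siRNA. Replicates 1 and 3 of Cox7a2l siRNA were above every control library, and replicate 2 was not. Its log2 fold change was 0.17 (SE 0.13, 95% interval -0.12 to 0.46, edgeR adjusted p = 0.549), and -0.04 on TPM. Psmc6 was the exception, at 99.7, 98.7 and 70.3 CPM with control siRNA and 106, 79.2 and 51.9 CPM with Cox7a2l siRNA. Its 3 control libraries already spanned 70.3 to 99.7 CPM, and its log2 fold change was -0.22 (SE 0.14, 95% interval -0.52 to 0.09, edgeR adjusted p = 0.446). Without the block and without Cox7a2l siRNA replicate 3 the value of Psmc6 was 0.04 and that of Psma1 0.01. That fit kept control replicate 3, the lowest control library in both genes. The differences in pairs 1 and 2 were 0.09 and -0.32 for Psmc6 and 0.05 and -0.49 for Psma1. Psmc1, Psmc2, Psmc4 and Psmc5 lay between 0.05 and 0.13.

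The 3 further base genes encode the scaffold subunits Psmd1 and Psmd2 and the ubiquitin receptor Psmd4 (Rpn10). Psmd4 was at 132, 144 and 115 CPM with control siRNA and 143, 127 and 169 CPM with Cox7a2l siRNA, with a log2 fold change of 0.16 (SE 0.15, 95% interval -0.16 to 0.49, edgeR adjusted p = 0.607). Psmd2 was at 350.1, 357 and 329 CPM with control siRNA and 341, 286 and 322 CPM with Cox7a2l siRNA, with means of 346 ± 14.5 against 316 ± 28.1 CPM (SD, n = 3), and a log2 fold change of -0.13 (SE 0.12, 95% interval -0.40 to 0.14, edgeR adjusted p = 0.620). It was lower in 3 of 3 pairs, with differences of -0.04, -0.32 and -0.03, so that pair 2 held most of the difference. Psmd1 was at 0.02.

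In the lid 3 values were positive and 5 negative, with a median of -0.01. Psmd7 (ENSMUSG00000039067.6), which encodes the lid subunit Rpn8, the partner of the deubiquitinase, stood at the top. It was at 57.4, 59.9 and 76.5 CPM with control siRNA and 76.5, 68.0 and 119.7 CPM with Cox7a2l siRNA. Means were 64.6 ± 10.3 against 88.1 ± 27.7 CPM (SD, n = 3), and the fitted ratio was 1.33 times the control level. Control replicate 3, at 76.5 CPM, was level with Cox7a2l siRNA replicate 1 and above replicate 2, so the groups overlapped. On CPM the difference within pairs was positive in 3 of 3, at 0.41, 0.18 and 0.65. Psmd7 was the only one of the 31 genes called 26S genes here of which this was true. Of the 8 other bound subunits and regulators, listed apart, 2 were higher in all 3 pairs and 1 was lower. The 2 were Psmf1 and Sem1, and the pair differences of Sem1 were 0.31, 0.16 and 0.05. Of the 35 members 3 (8.57%) were higher in all 3 pairs and 5 (14.3%) lower, against 21.2% and 20.8% of all genes. On TPM pair 3 of Psmd7 was level, at 47.3 with control siRNA and 47.0 with Cox7a2l siRNA. The median TPM difference of all genes in that pair was -0.52. The fitted log2 fold change was 0.41 (SE 0.13, 95% interval 0.12 to 0.71, edgeR adjusted p = 0.148), which missed the threshold. Without the block its adjusted p was 0.822 by edgeR, and without replicate 2 it was 0.0639. The authors' deposited table lists Psmd7 at a log2 fold change of 0.41 (SE 0.14) with an adjusted p of 0.04997, just inside 0.05. It was the only member called in the authors' deposited table, where 6.34% of genes were called (2.89% higher). A model with a term for replicate 3 in edgeR gave Psmd7 an adjusted p of 0.105.

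Psmd14 (Rpn11), the deubiquitinase itself and the direct partner of the Psmd7 protein, was at 78.5, 80.4 and 65.8 CPM with control siRNA and 91.3, 64.0 and 66.8 CPM with Cox7a2l siRNA. Its log2 fold change was -0.03 (SE 0.14, 95% interval -0.34 to 0.28, edgeR adjusted p = 0.941), and its pair differences were 0.22, -0.33 and 0.02. Psmd6 was the lowest lid gene, at 73.7, 73.0 and 57.5 CPM with control siRNA and 67.3, 61.7 and 54.8 CPM with Cox7a2l siRNA. It was lower in all 3 pairs, with a log2 fold change of -0.15 (SE 0.13, 95% interval -0.43 to 0.13, edgeR adjusted p = 0.586). Psmd3, Psmd8, Psmd11, Psmd12 and Psmd13 lay between -0.06 (Psmd11) and 0.11 (Psmd12).

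The 4 activator genes held 2 positive and 2 negative values. Psme1 and Psme2 encode the PA28 alpha and beta subunits, which form a ring that opens the core without ubiquitin or ATP and are known as interferon-induced genes. Psme1 (ENSMUSG00000022216.18) was at 30.2, 28.8 and 30.9 CPM with control siRNA and 32.5, 39.5 and 42.1 CPM with Cox7a2l siRNA. Every Cox7a2l siRNA library was above every control library, and replicate 1 was nearest to the controls. Means were 30.0 ± 1.05 against 38.1 ± 4.97 CPM (SD, n = 3), and the log2 fold change was 0.34 (SE 0.14, 95% interval 0.02 to 0.65, edgeR adjusted p = 0.253). Psme2 was at 37.7, 35.9 and 42.9 CPM with control siRNA and 39.9, 54.1 and 53.5 CPM with Cox7a2l siRNA. The groups overlapped through control replicate 3 and Cox7a2l siRNA replicate 1, and the log2 fold change was 0.33 (SE 0.15, 95% interval 0.01 to 0.65, edgeR adjusted p = 0.269). In Psme2 33.5% of 31-base words are shared with other genes, and the copy Psme2b was read at 1.46 to 5.04 CPM. On CPM Psme1 and Psme2 were both higher in 3 of 3 pairs, and neither passed the test. On TPM the groups overlapped in both. Psme1 was at 27.0, 26.9 and 29.4 TPM with control siRNA and 30.6, 35.2 and 25.3 TPM with Cox7a2l siRNA, so pair 3 turned to lower. Psme2 was at 53.8, 44.2 and 50.1 TPM against 48.8, 63.1 and 38.8 TPM, so pairs 1 and 3 turned to lower. The log2 fold changes of Psme1 and Psme2 on TPM were 0.12 and 0.00, where the median of all genes was -0.21. Over all genes the median TPM differences in pairs 1, 2 and 3 were -0.00, -0.11 and -0.52. Psme3, the nuclear PA28 gamma, was at 122, 119 and 122 CPM with control siRNA and 122, 82.4 and 132 CPM with Cox7a2l siRNA. It was low in Cox7a2l siRNA replicate 2 alone, and its log2 fold change was -0.13 (SE 0.14, 95% interval -0.45 to 0.18, edgeR adjusted p = 0.675). Psme4, which encodes the activator PA200, was at 148, 135 and 108 CPM with control siRNA and 143, 129 and 65.7 CPM with Cox7a2l siRNA. The single low library was Cox7a2l siRNA replicate 3, with a pair difference of -0.71 against -0.05 and -0.06 in the other pairs. The fitted value was -0.27 (SE 0.15, 95% interval -0.60 to 0.06, edgeR adjusted p = 0.382), and without that library and without the block it was 0.06. The fit without that library kept control replicate 3, the lowest control library at 108 CPM, while pairs 1 and 2 were both negative.

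**Figure D2:**
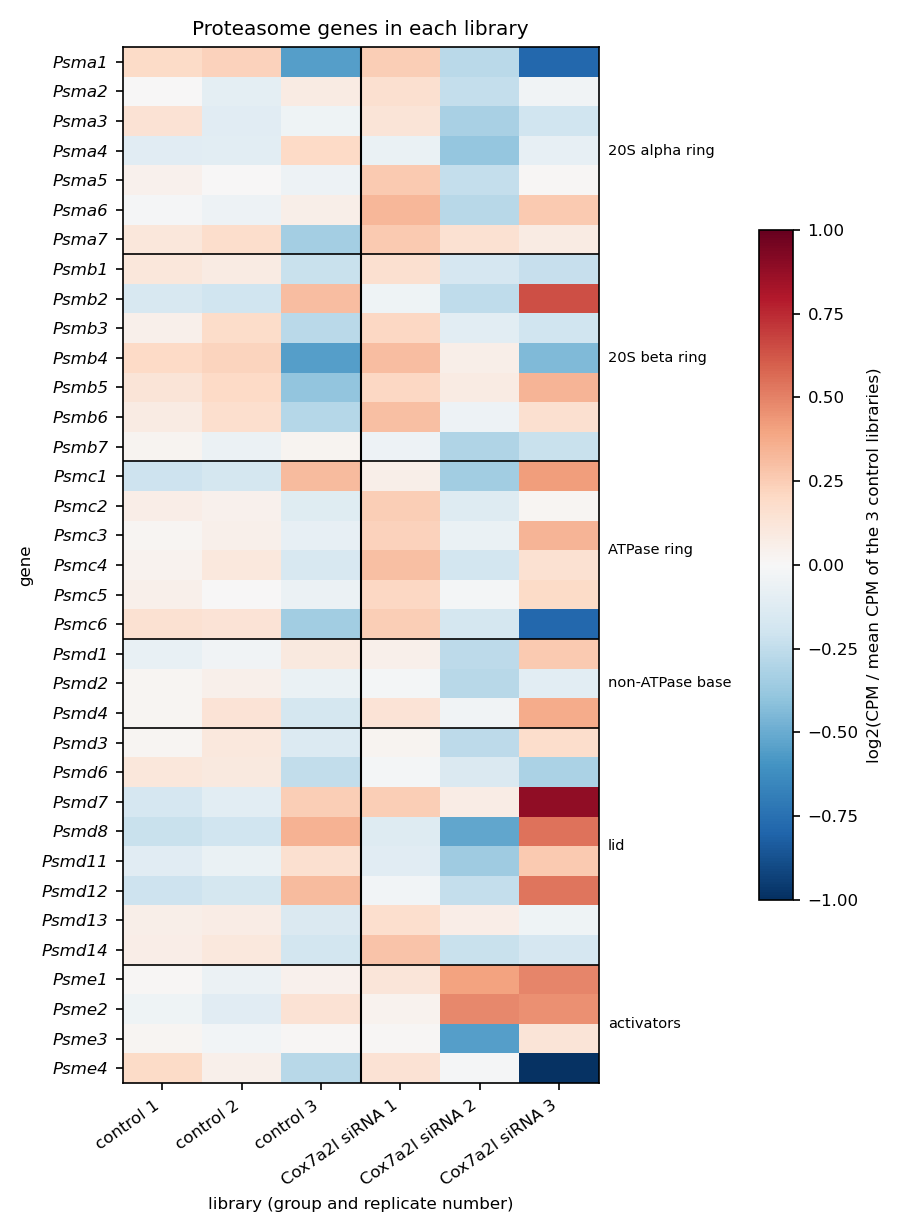
Level of each of the 35 genes (rows, by subcomplex) in each of the 6 libraries (columns), coloured by the log2 ratio of its CPM to the mean of the 3 control libraries, red above and blue below. Cox7a2l siRNA replicate 1 is mostly red and replicate 2 mostly blue among the 31 26S genes, while Psme1 and Psme2 are red in replicates 2 and 3.

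The 20S core, the ATPase ring and the lid were then compared. Their median log2 fold changes were -0.00, 0.08 and -0.01, and the medians in pairs 1, 2 and 3 were 0.11, -0.23 and 0.07 for the core, 0.19, -0.17 and 0.20 for the ATPase ring, and 0.10, -0.26 and 0.15 for the lid. The 3 subcomplexes thus differed from each other by less than each differed between pairs. Summed over the 14 core genes, levels were 1377, 1383 and 1165 CPM with control siRNA and 1494, 1199 and 1272 CPM with Cox7a2l siRNA, or 1308 ± 124 against 1322 ± 153 CPM (SD, n = 3). The 6 ATPase genes summed to 726, 731 and 689 CPM against 831, 650.2 and 797 CPM, or 715 ± 23.1 against 759.6 ± 96.2 CPM (SD, n = 3). The 8 lid genes summed to 845, 872 and 914 CPM against 891, 736 and 1067 CPM, or 877 ± 35.1 against 898 ± 166 CPM (SD, n = 3). The groups overlapped in all 3 sums. In each, Cox7a2l siRNA replicate 2 was below both control replicates 1 and 2, and Cox7a2l siRNA replicate 1 was above them.

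**Figure D3:**
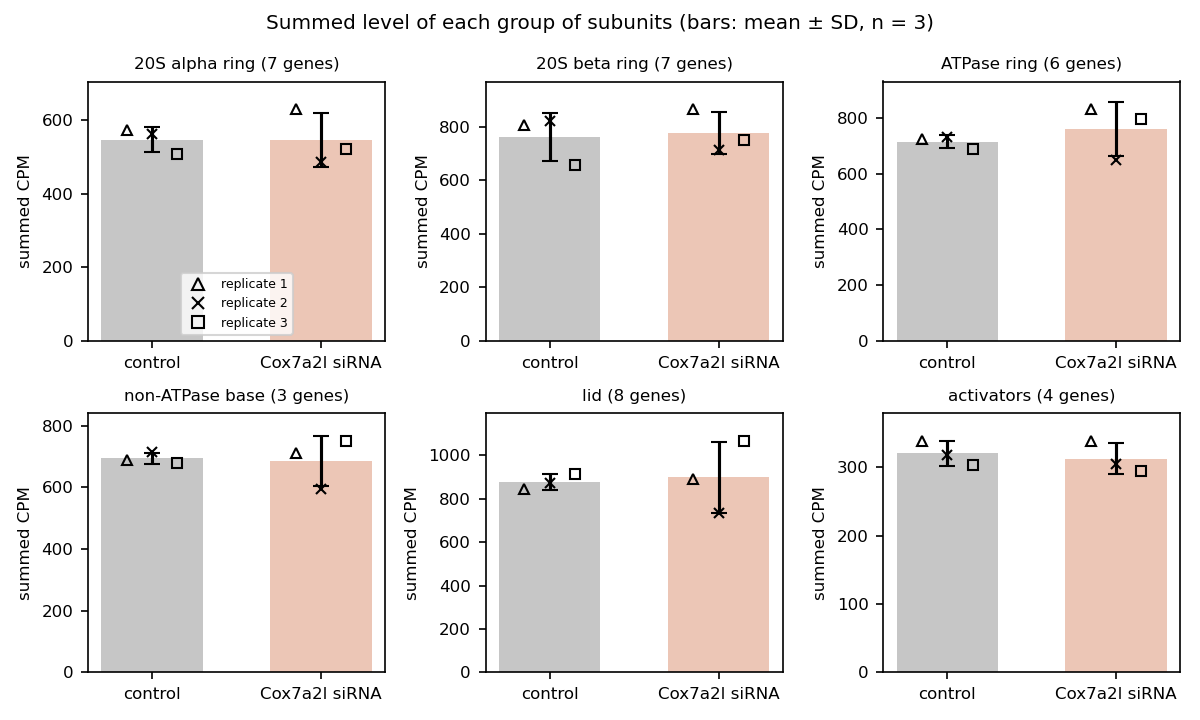
Summed CPM of the genes of each subcomplex (vertical axis, from 0), with a symbol for each library, bars for the group mean and error bars for the SD (n = 3). The groups overlap in each panel, and Cox7a2l siRNA replicate 2 lies below Cox7a2l siRNA replicate 1.

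The spread within the Cox7a2l siRNA group was shared by nearly all 26S genes. In pair 1, 5 of 31 were lower with Cox7a2l siRNA (median 0.12), in pair 2, 30 of 31 (median -0.23), and in pair 3, 9 of 31 (median 0.11). Over all genes 49.7%, 49.7% and 49.4% were lower in pairs 1, 2 and 3. Psmd7 was the exception in pair 2. The comparison of replicates 2 and 1 within a group did not use the pairing. With control siRNA, 11 of 31 genes were lower in replicate 2 (median difference 0.03). With Cox7a2l siRNA, 31 of 31 were lower in replicate 2, by -0.61 to -0.10 and with a median of -0.31, where 50.2% of all genes were lower. Of the 4 libraries of replicates 1 and 2, Cox7a2l siRNA replicate 2 was the lowest in 28 of 31 genes and Cox7a2l siRNA replicate 1 the highest in 24 of 31. Over all genes those libraries were the lowest in 29.1% and the highest in 29.6%. The genes of a library share that library, so these counts describe 2 libraries and are not a test. Of the 4 activator genes, Psme1 and Psme2 went the other way and were each higher in Cox7a2l siRNA replicate 2 than in replicate 1. The other 2 were lower there, Psme3 by -0.57 and Psme4 by -0.16.

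The direction in pair 2 held under each scaling tried. With TMM, RLE factors, library size alone or TPM (which also accounts for transcript length) 30 of 31 genes were lower, and with TPM rescaled without its largest row 29 were. Of all genes 49.7% were lower in pair 2 with TMM, 50.2% with RLE, 51.0% with library size, 63.8% with TPM and 49.9% with rescaled TPM. Pair 3 depended on the scaling. There 9 of 31 genes were lower with TMM or RLE, 18 with library size, 19 with rescaled TPM and 30 with TPM. Of all genes 49.4% were lower there with TMM, 49.5% with RLE, 60.6% with library size, 61.5% with rescaled TPM and 82.6% with TPM. The median of all genes in that pair was 0.01 with TMM, -0.15 with library size, -0.17 with rescaled TPM and -0.52 with TPM. A single gene row without a symbol took 36.9% to 53.6% of TPM in each library. Its share was lowest in control replicate 3 and highest in Cox7a2l siRNA replicate 3. Pair 3 differences elsewhere are those with TMM unless TPM is named. For the 26S genes as a set they give no direction that held across scalings. The cause of this dependence on the scaling was not tested. As a share of all counts the 35 members took 0.404%, 0.408% and 0.379% with control siRNA and 0.446%, 0.351% and 0.376% with Cox7a2l siRNA. The summed level of the 6 differentiating muscle markers, none of which was at 0 in all libraries, was 8.78 CPM with control siRNA and 26.3 CPM with Cox7a2l siRNA in pair 1, 9.08 and 6.95 CPM in pair 2, and 141 and 386 CPM in pair 3. The sum was lower in pair 2 through Myog (3.78 to 1.33 CPM) and Mymk (2.41 to 0.562 CPM), with Myh3 at a difference of -0.12. The other 3 markers were higher in pair 2, with differences of 1.39 for Tnnt1, 0.43 for Ckm and 0.21 for Actc1. Over the 3 pairs Tnnt1 and Actc1 rose (log2 fold changes 2.03 and 1.55, edgeR adjusted p = 0.00226 and 0.0263, and 0.846 and 0.918 without the block). The part of these markers in the proteasome values was not tested.

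Single subunit genes also differed between replicate 3 and replicates 1 and 2, in both groups. Psma1 differed in replicate 3 by -0.76 with control siRNA and by -0.77 with Cox7a2l siRNA, and Psmb4 by -0.76 and -0.62. Psmd8 differed there by 0.56 and 0.86, Psmd12 by 0.51 and 0.66, and Psmc1 by 0.51 and 0.57. These are differences in log2 CPM from the mean of replicates 1 and 2, and those 5 are the 26S genes beyond 0.5 in the same direction in both groups. They make up 6.45% lower and 9.68% higher of the 31, against 10.2% and 13.2% of all genes. Psmb5 changed sign between the groups, at -0.56 and 0.20. The muscle differentiation markers above were also higher in replicate 3, and their part in these values was not tested.

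Levels between genes were compared per transcript length, in TPM. Mean control levels ran from 22.3 TPM for Psme4 to 191 TPM for Psmb6. Next to Psmb6 came Psma7 at 158, Psmb3 at 156, Psmc3 at 138 and Psmb4 at 137 TPM, and the lowest 26S genes were Psma2 at 29.5 and Psmd12 at 29.8 TPM. The mean TPM of core genes over that of lid genes was 1.67, 1.63 and 1.28 with control siRNA and 1.68, 1.69 and 1.25 with Cox7a2l siRNA. The ratio of core to ATPase genes was 1.25, 1.27 and 1.07 against 1.17, 1.22 and 1.04, and that of ATPase to lid genes was 1.34, 1.28 and 1.19 against 1.43, 1.38 and 1.20. These ratios within a library do not depend on its largest row. The groups overlapped in all 3, and each ratio was lowest in replicate 3 of both groups.

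**Figure D4:**
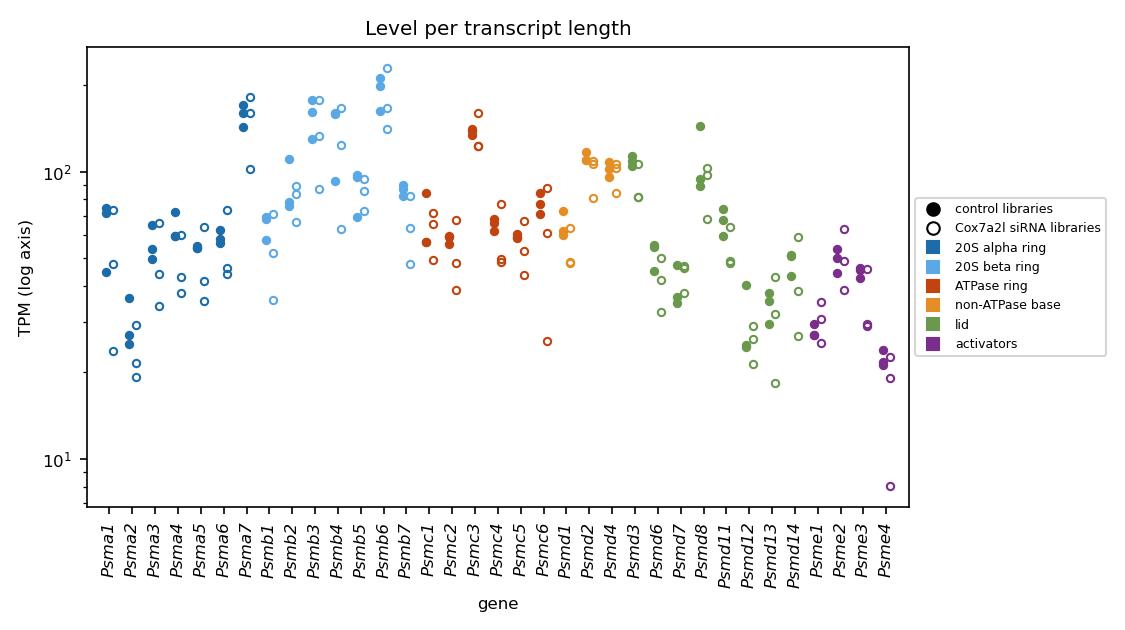
Level per transcript length (TPM) of each of the 35 proteasome genes on a log axis, coloured by subcomplex, with filled points for the 3 control libraries and open points for the 3 Cox7a2l siRNA libraries. Psmb6 is the highest on average in the control libraries at 191 TPM and Psme4 the lowest at 22.3 TPM.

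Genes around the proteasome were read as lists chosen by function, and 0 members of any of these lists were called by edgeR. Of 5 immune and tissue-specific core subunits, Psmb8, Psmb9 and Psmb11 stayed below 1 CPM and Psma8 was at 0, and they were not tested. Psmb10, an immunoproteasome subunit, was at 11.02, 12.04 and 9.04 CPM with control siRNA and 9.51, 15.9 and 15.05 CPM with Cox7a2l siRNA, with a log2 fold change of 0.31 (SE 0.21, 95% interval -0.15 to 0.76, edgeR adjusted p = 0.476). Nfe2l1 (ENSMUSG00000038615.18), the transcription factor named above, was at 222, 215 and 219 CPM with control siRNA and 266, 265 and 369 CPM with Cox7a2l siRNA. Every Cox7a2l siRNA library was above every control library, and replicate 3 was the highest. Means were 219 ± 3.49 against 299.9 ± 59.8 CPM (SD, n = 3), and pair differences were 0.26, 0.30 and 0.75. The log2 fold change was 0.44 (SE 0.13, 95% interval 0.14 to 0.73, edgeR adjusted p = 0.131). The adjusted p of Nfe2l1 by edgeR was 0.0287 with no expression filter and 0.770 without the block, and the authors' deposited table gives it 0.43 with an adjusted p of 0.0265. On TPM its groups overlapped, at 62.1, 58.8 and 78.1 TPM with control siRNA and 58.9, 64.6 and 83.1 TPM with Cox7a2l siRNA, and its log2 fold change there was 0.05 (limma adjusted p = 0.930). Nfe2l2, the related oxidative stress factor, was at 55.3, 60.6 and 79.6 CPM with control siRNA and 63.1, 73.2 and 92.9 CPM with Cox7a2l siRNA, and at 0.23 (SE 0.12, 95% interval -0.04 to 0.50, edgeR adjusted p = 0.360) its 3 pair differences were 0.19 to 0.27. On TPM its value turned to -0.05. The median of all genes on TPM was -0.21, below the values of Nfe2l1 and Nfe2l2. Of the 8 genes of this list, which also holds Ddi2, Ngly1, Vcp and the CCAAT-binding Nfya, Nfyb and Nfyc, 5 were positive and 3 negative.

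Assembly chaperones are needed to build the core and the base. Of 9 listed, 8 were found and 4 were positive and 4 negative, with a median of -0.08. Of these 3 had groups that did not overlap with lower values and 1 with higher values, where 7.62% and 7.96% of all genes did. They are named here after their values were seen. Pomp, which assists maturation of the core, was at 56.0, 54.8 and 48.6 CPM with control siRNA and 46.5, 48.5 and 36.8 CPM with Cox7a2l siRNA, with a log2 fold change of -0.28 (SE 0.13, 95% interval -0.57 to 0.01, edgeR adjusted p = 0.298). Psmg2, of the chaperone pair that starts the alpha ring, was at 15.6, 14.6 and 12.6 CPM with control siRNA and 11.5, 12.01 and 7.86 CPM with Cox7a2l siRNA, at -0.46 (SE 0.18, 95% interval -0.84 to -0.07, edgeR adjusted p = 0.208). Psmd9, a base chaperone, was at 25.3, 28.2 and 26.4 CPM with control siRNA and 23.7, 22.0 and 17.7 CPM with Cox7a2l siRNA, at -0.34 (SE 0.16, 95% interval -0.68 to 0.01, edgeR adjusted p = 0.291). Psmd10 (gankyrin), another base chaperone, did not overlap in the other direction, at 13.7, 13.3 and 11.9 CPM with control siRNA and 16.5, 16.4 and 14.4 CPM with Cox7a2l siRNA and 0.28 (SE 0.16, 95% interval -0.08 to 0.63, edgeR adjusted p = 0.399). None of the 4 passed the test. The 8 other bound subunits and regulators, among them Adrm1, Usp14 and Psmf1, lay between -0.15 and 0.17.

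**Figure D5:**
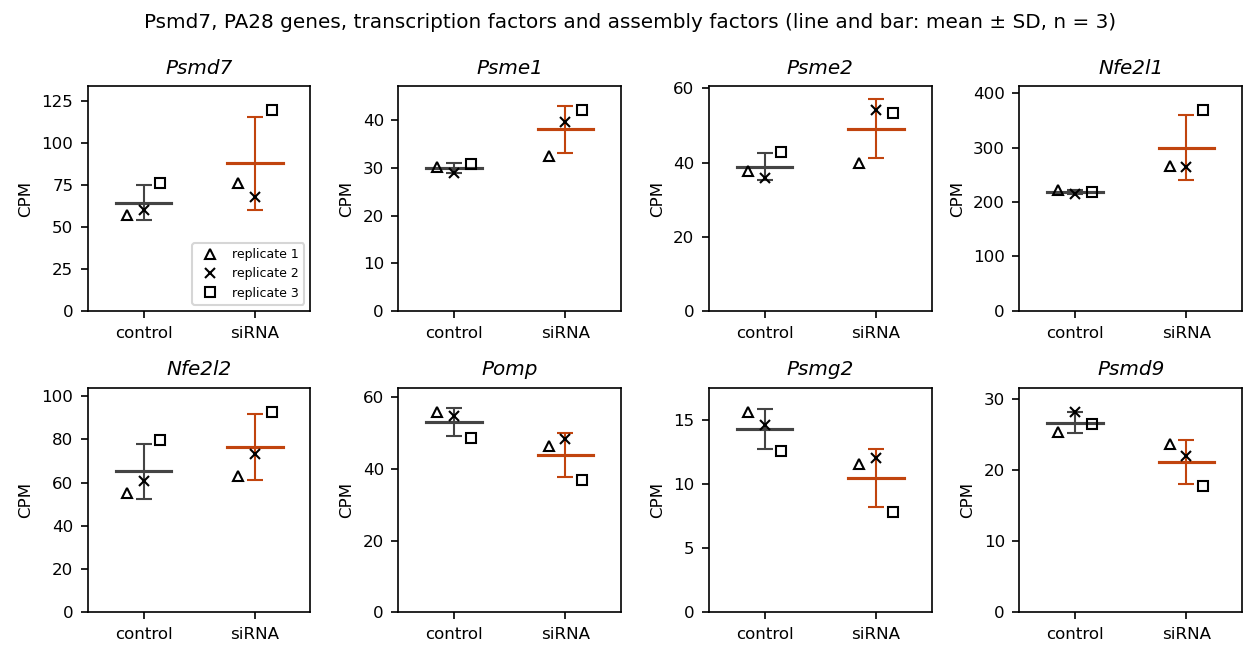
CPM (vertical axes, from 0) of Psmd7, Psme1, Psme2, Nfe2l1, Nfe2l2 and 3 of the 8 assembly factors tested. Each library has a symbol, a line marks the group mean and error bars the SD (n = 3). Nfe2l1 lies higher in the 3 Cox7a2l siRNA libraries than in the 3 control libraries, and Pomp, Psmg2 and Psmd9 lie lower, none of them past the threshold of the test. These 3 assembly factors were drawn after their values were seen. Psmd10, whose groups did not overlap in the higher direction, is not drawn. Of the 8 tested, 4 were positive and 4 negative.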

How the data were processed

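The members and gene lists were chosen with earlier results of these data known. Per the labels' protocols, ribosomal RNA-depleted total RNA was made into dUTP-marked libraries. Tools listed in the submitters' processing notes are Salmon 0.13.1, Trim Galore 0.6.4 and DESeq2 1.30.1, with the build mm39. The authors deposited estimated counts, unscaled, and TPM per gene, and a table whose file headers give log2 fold changes with SE, p-values and adjusted p-values, and scaled counts, a normalised signal, and a score (the fold change over its SE), not used here. Of the estimated counts 12.5% to 14.3% were not whole, and they were rounded, since the design had foreseen counts. Symbols were joined by unversioned identifier to GENCODE M21 (GRCm38), which named 97.6% of rows. Paaf1 found no match.

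Tests used edgeR 4.0.16 (R 4.3.3) with TMM, the default filter, robust quasi-likelihood, the replicate number as block and Benjamini-Hochberg adjustment over 15022 genes at 0.05, and were tested on simulated data. Pair differences have a prior count of 2. The design took same-numbered libraries as pairs. Their deviations from group means correlated at 0.53, 0.45 and 0.67. Replicates 1 and 2 also correlated at 0.44 and 0.43 across numbers, so only replicate 3 paired clearly. No label says what a number shares. Alternatives were no block, a replicate 3 term, DESeq2 1.42.0, RLE or library size scaling, no filter, limma 3.58.1 on log2(TPM + 0.5) or log2(TPM + 1), and leaving out libraries. Named were Cox7a2l, called members, the highest and lowest member per subcomplex, the catalytic, receptor, deubiquitinase and activator genes, Nfe2l1 and Nfe2l2.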

Additional observations from a re-analysis of the deposited data

How the results depend on the processing

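No member was called in any of the 18 settings run, the replicate block included. All genes called numbered 109 with the block, 2 without it, 197 with a term for replicate 3, 493 with DESeq2, 58 with library size, 1257 with no filter, 14 and 11 with limma on log2(TPM + 0.5) and log2(TPM + 1), and 373, 1210 and 51 without replicate 1, 2 or 3. Without the replicate block the medians were -0.01 for the 20S core, 0.09 for the ATPase ring and 0.01 for the lid. On log2(TPM + 0.5) they moved to -0.27, -0.17 and -0.28, and on log2(TPM + 1) to -0.27, -0.17 and -0.28, where the median of all genes was -0.21 and -0.18, and the cause of the shift was not tested. Leaving out a pair gave medians of -0.10 to 0.10, -0.01 to 0.18 and -0.08 to 0.12, and leaving out a library without the block -0.15 to 0.05, 0.03 to 0.20 and -0.10 to 0.09. Psmd7 was positive in the 17 alternatives (0.14 to 0.59). Without the block, the adjusted p of Cox7a2l by edgeR was 0.0122, and 0.00887 without Cox7a2l siRNA replicate 3 but 0.0816 to 0.286 without any of the other 5 libraries in turn. The members' 95% intervals, from -0.60 to 0.71, hold for the model with the block.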

Other observations

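The ubiquitin genes and shuttle factors, which supply the tag and carry tagged proteins to the proteasome, held 10 members, of which 0 were called, 5 were positive and 5 negative. The shuttle factor genes Ubqln1 and Ubqln4 were lower in 3 of 3 pairs, at -0.16 (SE 0.11, 95% interval -0.42 to 0.09, edgeR adjusted p = 0.490) and -0.28 (SE 0.12, 95% interval -0.55 to -0.01, edgeR adjusted p = 0.264). Uba1, the main ubiquitin-activating enzyme, was at 503, 498 and 493 CPM with control siRNA and 496, 520.3 and 525 CPM with Cox7a2l siRNA. Ubqln1, Ubqln4 and Uba1 were named after their values were seen.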
